A study of Mus musculus with 8 samples.

Results

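The sodium-potassium pump exchanges intracellular sodium for extracellular potassium, and the genes described here encode its beta subunits and its FXYD regulators. They are the 7 genes Atp1b1, Atp1b2, Atp1b3, Fxyd1, Fxyd5, Fxyd6 and Fxyd7, of 39179 gene identifiers counted, taken by symbol from the authors' comparison table and joined by Ensembl identifier to the counts of each library. The 8 RNA-seq libraries came from spinal cord astrocytes of mixed Swiss-Webster mice at postnatal days 12 to 14, collected by flow sorting for the Aldh1l1-GFP reporter, which animals of both groups carried. The control group was cre-negative and labelled wild type (4 libraries, S1, S2, S6 and S7), and whether it carried floxed alleles is not given. In the cKO group (4 libraries, S3, S4, S5 and S8), Aldh1l1-cre acted on floxed alleles of Kcnj10, the gene of the inward rectifier potassium channel Kir4.1. Aldh1l1 elements therefore drove both the recombinase and the sort marker. The libraries are described as biological replicates, but the labels do not say how many animals went into each, so p-values measure the spread between these libraries.

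The pump is built from a catalytic alpha subunit, which hydrolyses ATP and moves the ions, and a glycosylated beta subunit, which brings the complex to the membrane and tunes its affinity for potassium. FXYD proteins are small single-span membrane proteins, named after a shared sequence motif, that sit beside the pump and adjust its kinetics. In nervous tissue the pump restores the ion gradients that firing disturbs. Astrocytes use it, next to Kir4.1, to take up potassium released by active neurons. The study's title asks about astrocyte interactions with fast motor neurons that depend on Kir4.1, and the comparison here addresses whether pump subunits and regulators differed when that channel was deleted.

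The stretch that gives the FXYD family its name is shown for the 4 family members because it is what these regulators share outside their expression. Each line gives coding sequence from the longest complete coding transcript of GENCODE mouse release M21 (GRCm38), 5′ to 3′, with the 4 codons of the FXYD motif in capitals.
Fxyd1: ccggatccaTTCACCTACGATtaccacacc
Fxyd5: aacaaccccTTCTACTACGATgatactacc
Fxyd6: aaggatcctTTCTATTACGACtaccagacc
Fxyd7: acagatcctTTTTTCTATGACtatgccact
In all 4 genes an intron interrupts these 12 bases, so the motif lies in coding exons and is split between neighbouring exons, exons 3 and 4 in Fxyd1 and Fxyd6, 7 and 8 in Fxyd5, and 2 and 3 in Fxyd7. The motif and its intron cover chr7:31053473-31053902 in Fxyd1, chr7:31035282-31035395 in Fxyd5 and chr7:31045026-31047382 in Fxyd7, all on the minus strand, and chr9:45390663-45390778 on the plus strand in Fxyd6. Between members, 7 to 10 of the 12 bases were identical. The motif began at codon 29 in Fxyd1 and Fxyd6 and at codon 18 in Fxyd7, but at codon 136 in Fxyd5, whose coding sequence of 558 bases was the longest of the 4 and which is known for its extended extracellular part. Fxyd5, Fxyd7 and Fxyd1 follow each other on the minus strand of chromosome 7 within 24.5 kb, with 31 bases between Fxyd5 and Fxyd7 and 210 bases between Fxyd7 and Fxyd1.

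Reads counted in genes ranged from 13892736 to 22050884 in controls and from 16521770 to 25065686 in cKO. The targeted gene followed the labels. Kcnj10 was at 1181 to 2306 CPM (counts per 1000000 gene reads, with library sizes scaled by TMM factors) in controls and 27.2 to 37.6 CPM in cKO. Its log2 fold change, cKO over control, came to −5.74 (standard error 0.25, edgeR adjusted p 7.52e-08). Astrocyte markers fixed as a list of 9 genes summed to 6191 to 10184 CPM in controls and 8937 to 11620 CPM in cKO, and none was at 0 in every library, so RNA of the labelled cell type was present throughout. Of these 9 markers, 2 passed the test at an adjusted p under 0.05, where 0.318% of all 14757 tested genes did, and both were higher in cKO. They were the water channel gene Aqp4, at 2007 CPM ± 354 against 4286 CPM ± 783 (SD, n = 4 each, edgeR adjusted p 0.0243), and Aldh1l1, at 139 CPM ± 8.65 against 282 CPM ± 48.8 (SD, n = 4 each, edgeR adjusted p 0.0179). Aldh1l1 is the gene whose elements drive the reporter and the recombinase, and the part of its higher level in the members' values was not tested. Gja1, the connexin 43 gene, was at 2271 CPM ± 914 and 1631 CPM ± 475 (SD, n = 4 each) and did not pass. The same sums were 68.3 to 104 CPM in controls and 42.3 to 74.5 CPM in cKO for 10 neuronal markers, and 1449 to 2912 CPM and 977 to 2312 CPM for 9 oligodendrocyte markers.

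The pump's beta transcripts in these astrocytes were almost entirely Atp1b2, at similar mean levels with and without Kir4.1. Atp1b2 encodes the glial beta subunit, also known as the adhesion molecule on glia. Among 21290 nuclear protein-coding genes ranked by CPM per kilobase of exon, Atp1b2 stood in place 2 in controls and again in place 2 in cKO. In controls Cst3, which encodes cystatin C, stood above it. No member passed the test in cKO against control: 0 of the 6 tested members had an adjusted p under 0.05, where 0.318% of all 14757 tested genes did (47 genes, 30 higher and 17 lower in cKO). DESeq2 also called 0 of the 5 members to which it gave an adjusted p, against 2.26% of genes. At an unadjusted p under 0.05 there was 1 member, Fxyd1, which was lower in cKO. Of all tested genes, 9.81% had such a p in either direction and 4.77% had it with lower expression in cKO.

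**Figure D1:**
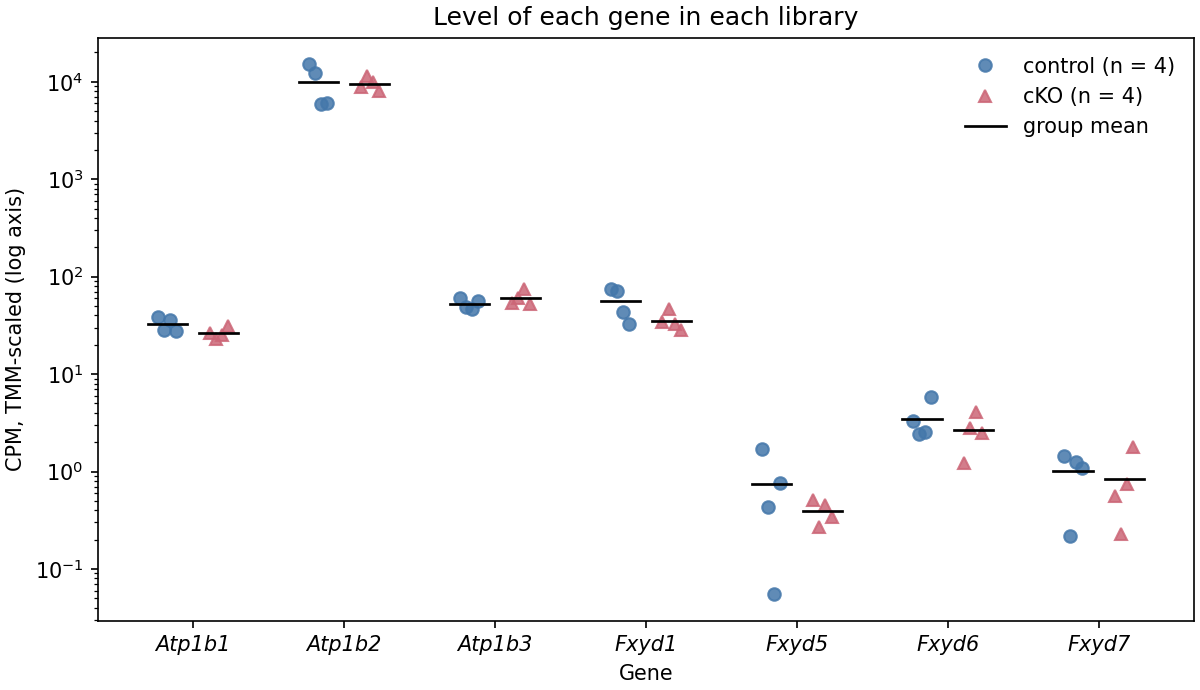
Level of the 7 genes in each library, in CPM on a log axis, with circles for the 4 control libraries, triangles for the 4 cKO libraries and black lines for group means. Atp1b2 lies between 5860 and 15121 CPM, all other members lie under 76 CPM, and the libraries of the groups overlap for every gene.

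Atp1b2 (ENSMUSG00000041329) lies on the minus strand of chromosome 11, from 69599736 to 69605942, and overlaps no other annotated gene. Control libraries S1, S2, S6 and S7 gave 15121, 12419, 5860 and 6054 CPM, while cKO libraries S3, S4, S5 and S8 gave 8747, 11559, 10020 and 7967 CPM. The controls thus fell into a pair of high and a pair of low libraries, and all 4 cKO libraries lay between the pairs. Means were 9863 CPM ± 4645 in controls, against 9573 CPM ± 1571 in cKO (SD, n = 4 each). The log2 fold change of −0.04 had a standard error of 0.28 and a 95% interval from −0.65 to 0.57. This interval allows a level in cKO between 63.6% and 148% of control, so changes within that range are not excluded. It is not a limit of detection, because calls used a p adjusted over all tested genes. The sign of the fold change depended on the scaling and on single libraries. It was 0.057 with library totals in place of TMM factors, a scaling that shifted the median of all genes by 0.11. It was 0.24 without control S1 and −0.23 without control S6. Alone, Atp1b2 took 1.46% of all gene reads in control S1 and 0.552% in control S6.

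Atp1b3 encodes a broadly expressed beta subunit and was the second most abundant of the 3 in every library. The gene (ENSMUSG00000032412) lies on the minus strand of chromosome 9, from 96332655 to 96364442. Control libraries S1, S2, S6 and S7 gave 59.8, 48.8, 46.0 and 56.9 CPM, while cKO libraries S3, S4, S5 and S8 gave 53.1, 59.7, 75.2 and 52.3 CPM. Only cKO S5 lay above the controls' range. The fitted log2 fold change was 0.18 (standard error 0.18), with an interval from −0.20 to 0.57 and an adjusted p of 0.791 in edgeR's quasi-likelihood test.

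Atp1b1 encodes the beta subunit best known from neurons and many epithelia. The gene (ENSMUSG00000026576) lies on the minus strand of chromosome 1, from 164437109 to 164458355, 7.88 Mb before Kcnj10. Control libraries S1, S2, S6 and S7 gave 38.3, 28.0, 35.9 and 28.0 CPM, while cKO libraries S3, S4, S5 and S8 gave 26.2, 23.2, 25.3 and 31.0 CPM. Of the cKO libraries, only S8 reached the controls' range. The fitted log2 fold change was −0.30 (standard error 0.20), with an interval from −0.74 to 0.14 and an adjusted p of 0.679 in edgeR's quasi-likelihood test. Atp1b1 shares 575 exon bases with Nme7 on the opposite strand, and strand use in counting is not given in the sources used here, so some of its reads are uncertain. The neuronal marker sum was also lower on average in cKO, at 42.3 to 74.5 CPM against 68.3 to 104 CPM. Control S1, with the highest Atp1b1 at 38.3 CPM, had the lowest control sum, 68.3 CPM. Control S7, with 28.0 CPM of Atp1b1, had the highest sum, 104 CPM. The highest cKO sum, 74.5 CPM, was in S5, with 25.3 CPM of Atp1b1. In both values, however, control S6 was above S2, cKO S8 above S3 and cKO S5 above S4. The part of neuronal RNA in the values of Atp1b1 was not tested. In bulk libraries, fewer cells of a type and less RNA per cell cannot be told apart.

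Beta isoform shares were computed per length, as each gene's part of the summed counts per kilobase of exon over Atp1b1, Atp1b2 and Atp1b3. Atp1b2 made up 99.0%, 99.0%, 97.9% and 97.8% for control libraries S1, S2, S6 and S7, and 98.6%, 98.9%, 98.4% and 98.4% for cKO libraries S3, S4, S5 and S8. Mean shares were 98.4% ± 0.670 in controls, against 98.6% ± 0.220 in cKO (SD, n = 4 each). The difference of 0.122 percentage points was within the spread of the libraries, with an exact 2-sided permutation p of 0.771. Atp1b3 took 1.06% ± 0.460 in controls and 1.07% ± 0.162 in cKO, and Atp1b1 took 0.506% ± 0.235 and 0.373% ± 0.104 (SD, n = 4 each). Their exact 2-sided permutation p were 1 and 0.343. In all, 7 member shares were compared without adjustment, and 4 against 4 libraries cannot give a p below 0.0286. Control S6 and S7, the libraries with the lowest Atp1b2, had the largest shares of both minor isoforms. As Atp1b2 made up nearly all of the sum, the minor shares rise wherever its level falls. In CPM, Atp1b1 and Atp1b3 were both highest among controls in S1, at 38.3 and 59.8 CPM.

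**Figure D2:**
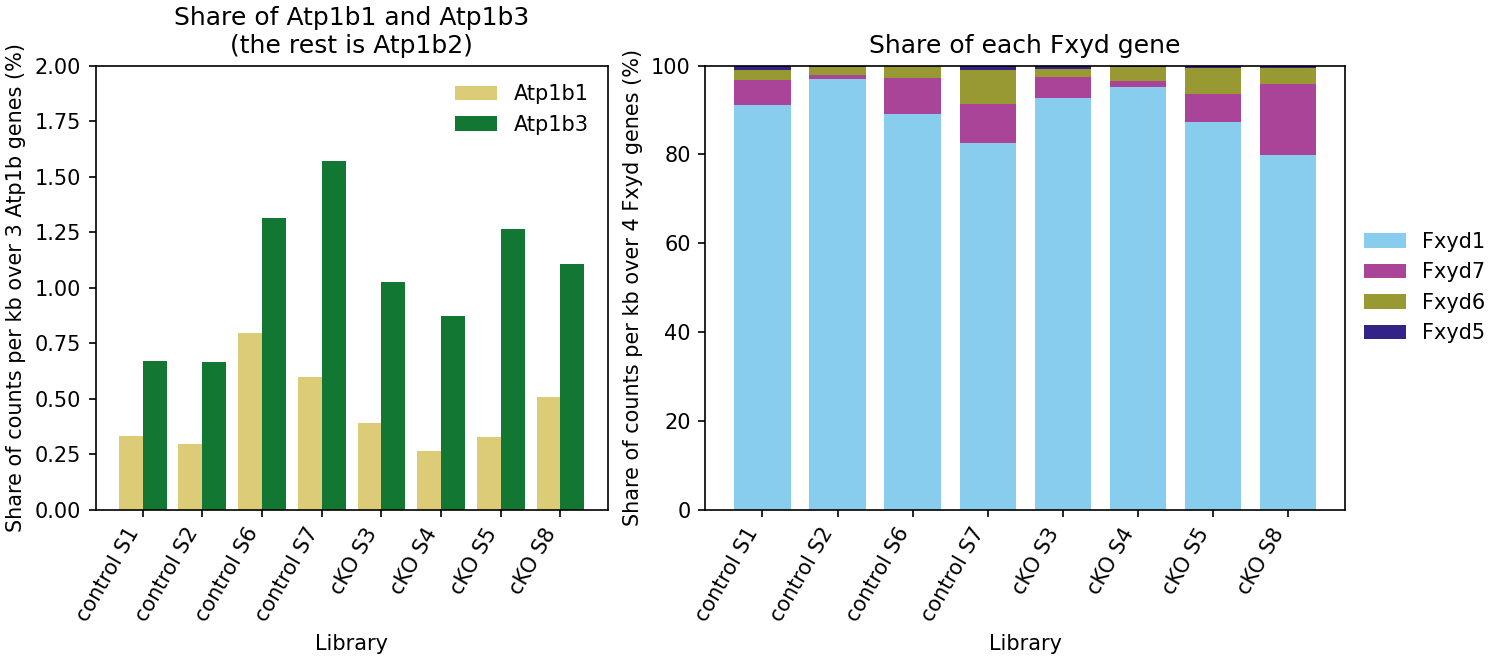
Isoform shares by library, as percent of summed counts per kilobase of exon, with bars for Atp1b1 and Atp1b3 among the 3 beta genes on the left and stacked bars for the 4 Fxyd genes on the right. The minor beta isoforms stay under 1.58% in every library, and Fxyd1 makes up 79.9% to 97.0% of the Fxyd total.

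Among the regulators, Fxyd1 was the main transcript in every library, and it had the lowest unadjusted p of the members. Fxyd1 encodes phospholemman, a target of protein kinases A and C that lowers the pump's affinity for sodium until it is phosphorylated. The gene (ENSMUSG00000036570) lies on chromosome 7 from 31051678 to 31057199. Control libraries S1, S2, S6 and S7 gave 74.5, 71.8, 43.5 and 32.9 CPM, while cKO libraries S3, S4, S5 and S8 gave 34.4, 46.0, 32.4 and 28.6 CPM. Control S1 and S2 lay above all cKO libraries, while control S6 and S7 lay within the cKO range. Means were 55.7 CPM ± 20.6 in controls, against 35.3 CPM ± 7.52 in cKO (SD, n = 4 each), or 63.5% of control. The log2 fold change of −0.65 had a standard error of 0.27 and an interval from −1.23 to −0.08. Its unadjusted p was 0.0294 and its adjusted p 0.435 in edgeR's quasi-likelihood test over all 14757 genes, so it did not pass. Without control S1 the fold change was −0.48 and without control S2 −0.51. The authors' deposited DESeq2 comparison likewise gave Fxyd1 no call, with a log2 fold change of −0.57 and an adjusted p of 0.256. That fold change is smaller in size than the plain ratio of its group means, 1024 and 649 scaled counts. Its size is therefore not comparable with −0.65.

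Fxyd6 encodes a regulator known from brain and inner ear, and it was a minor transcript here. The gene (ENSMUSG00000066705) is on chromosome 9, plus strand, at 45370185 to 45396159. Reads were few here too, and control libraries S1, S2, S6 and S7 held 52, 33, 46 and 122 raw counts, while cKO libraries S3, S4, S5 and S8 held 24, 62, 71 and 58. These correspond to 3.50 CPM ± 1.57 and 2.64 CPM ± 1.16 (SD, n = 4 each). Control S7 was the highest library and cKO S3 the lowest, and the other 6 overlapped. The log2 fold change of −0.41 had a standard error of 0.55 and an interval from −1.61 to 0.79. Without control S7 it was −0.05.

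Fxyd7 encodes a regulator known chiefly from brain, and its counts were too low to exclude even large changes. The gene (ENSMUSG00000036578) lies on chromosome 7 from 31042513 to 31051467. Its control libraries S1, S2, S6 and S7 held 23, 3, 23 and 23 raw counts, while cKO libraries S3, S4, S5 and S8 held 11, 5, 13 and 42. The 42 reads of cKO S8 have a 95% Poisson interval of 30.3 to 56.8 and the 3 reads of control S2 one of 0.619 to 8.77, covering counting error only. The fitted log2 fold change was −0.28 (standard error 0.85), with an interval from −2.11 to 1.56. Without cKO S8 it was −0.98 and without cKO S4 0.037, so single libraries set its size and sign.

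Fxyd5 encodes dysadherin, a regulator of the pump and of cell adhesion known mainly from epithelia. It was the only member that did not pass the filter on low counts. The gene (ENSMUSG00000009687) lies on chromosome 7 from 31032722 to 31042481 and shares 60 exon bases with the microRNA gene Mir7050 on the same strand. Control libraries S1, S2, S6 and S7 held 27, 6, 1 and 16 raw counts, while cKO libraries S3, S4, S5 and S8 held 10, 6, 8 and 8. The cKO libraries lay close together within the wide range of the controls. When every gene with at least 1 count was tested, the fitted log2 fold change was −0.90 (standard error 1.15), with an adjusted p of 0.807 in edgeR's quasi-likelihood test. Endothelial markers, from a cell type that can carry Fxyd5, summed to 36.9 to 55.5 CPM in controls and 16.2 to 43.6 CPM in cKO, and fibroblast markers to 124 to 516 CPM and 78.8 to 165 CPM. Control S1, with 27 Fxyd5 reads, had an endothelial sum of 54.8 CPM and a fibroblast sum of 124 CPM. In control S6, with 1 read, these sums were 55.5 CPM and 516 CPM. The part of these cells in the Fxyd5 values was not tested.

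**Figure D3:**
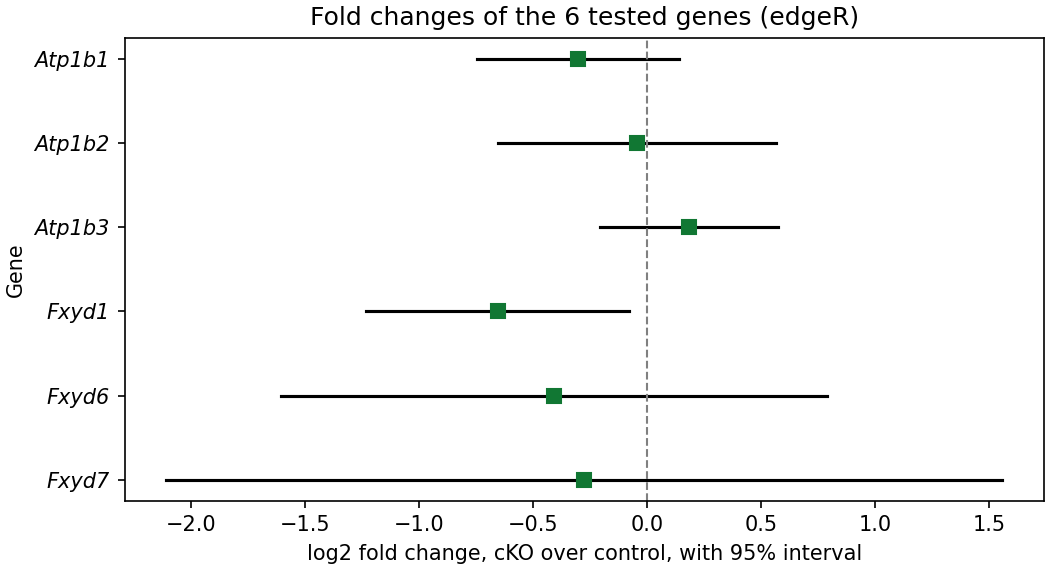
Log2 fold changes of the 6 tested genes, cKO over control, from edgeR's quasi-likelihood fit, with squares for estimates, lines for 95% intervals and a dashed line at 0. The intervals widen from Atp1b3, at −0.20 to 0.57, to Fxyd7, at −2.11 to 1.56, and that of Fxyd1, at −1.23 to −0.08, leaves out 0 before adjustment for the number of genes tested.

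Of the 6 tested members, 5 had lower and 1 had higher mean expression in cKO by the fitted fold change, where 51.6% of all tested genes were lower. The 5 include Atp1b2 and Fxyd7, whose signs changed under some alternative settings. The members' median was −0.29, beside a median of −0.02 over all tested genes. The median size of change regardless of sign was 0.29 among the members and 0.31 among all genes. The groups' libraries overlapped for each of the 6. Over all tested genes, 6.34% had groups that did not overlap, so overlap in all 6 does not set the members apart. The 4 remaining beta and FXYD family genes had at most 67 counts in any library, and 1 of them passed the filter on low counts.

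FXYD shares per length were dominated by Fxyd1, with 91.1%, 97.0%, 89.0% and 82.7% for control libraries S1, S2, S6 and S7 and 92.7%, 95.1%, 87.3% and 79.9% for cKO libraries S3, S4, S5 and S8. The groups covered nearly the same range. Mean shares were 90.0% ± 5.93 in controls, against 88.8% ± 6.74 in cKO (SD, n = 4 each), with an exact 2-sided permutation p of 0.771. Fxyd7 took 5.84% ± 3.53 and 7.10% ± 6.17, Fxyd6 3.59% ± 2.79 and 3.59% ± 1.68, and Fxyd5 0.613% ± 0.508 and 0.538% ± 0.187 (SD, n = 4 each). The exact 2-sided permutation p were 0.8 for Fxyd7, 1 for Fxyd6 and 0.771 for Fxyd5. With the longest transcript as length, mean Fxyd1 shares were 95.7% ± 2.76 and 95.3% ± 2.69 (SD, n = 4 each). The minor shares depended more on the length used. By the longest transcript Fxyd7 took 1.93% ± 1.19 and 2.41% ± 2.21, Fxyd6 2.07% ± 1.69 and 2.06% ± 0.994, and Fxyd5 0.282% ± 0.237 and 0.248% ± 0.0856 (SD, n = 4 each). The lowest Fxyd1 share, in cKO S8, went with the highest Fxyd7 share, 15.9% by exon union and 5.57% by the longest transcript.

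Levels between genes were compared per length. In controls the order in CPM per kilobase of exon was Atp1b2 at 2415 ± 1137, Fxyd1 at 25.5 ± 9.44, Atp1b3 at 22.1 ± 2.73, Atp1b1 at 10.6 ± 1.73, Fxyd7 at 1.45 ± 0.789, Fxyd6 at 0.852 ± 0.382 and Fxyd5 at 0.177 ± 0.169 (SD, n = 4 each). Neighbours whose library ranges overlapped were Fxyd1 with Atp1b3 and Fxyd7 with Fxyd6. In cKO Atp1b2 was at 2343 ± 385, Atp1b3 at 25.1 ± 4.44, Fxyd1 at 16.2 ± 3.44 and Atp1b1 at 8.57 ± 1.07 (SD, n = 4 each), with Atp1b3 above Fxyd1 in 4 of 4 libraries. That order of Atp1b3 and Fxyd1 rests on the length used. The union of annotated Fxyd1 exons is 2.186 kb, while its longest transcript is 0.668 kb. By the longest transcript Fxyd1 was at 83.3 ± 30.9 and 52.9 ± 11.3 CPM per kilobase in controls and cKO, above Atp1b3 at 26.5 ± 3.27 and 30.1 ± 5.31 (SD, n = 4 each). The deposited FPKM also placed Fxyd1 above Atp1b3, at 175 ± 69.0 against 39.3 ± 4.51 in controls and 102 ± 27.7 against 45.1 ± 8.24 in cKO (SD, n = 4 each). The order of Fxyd7 and Fxyd6 in controls also turned with the length, to 1.45 ± 0.789 for Fxyd7 and 1.48 ± 0.664 for Fxyd6 by the longest transcript and to 2.64 ± 1.67 and 2.87 ± 1.24 in the deposited FPKM (SD, n = 4 each). Fxyd5 was close to both on that last scale, at 2.47 ± 2.65 FPKM in controls, with 1.07 ± 0.694 for cKO (SD, n = 4 each), so the order among the 3 low Fxyd genes is not settled here. Atp1b2 stood first and Fxyd1 above Fxyd5, Fxyd6 and Fxyd7 on all 3 scales in both groups.

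Atp1b2 and Fxyd1 varied together between libraries. The correlation of their log2 CPM over the 8 libraries was 0.69, and 0.92 with group means removed. The latter was the highest among the pairs of tested members, and both values describe libraries that share depth and scaling. Per 1000 Atp1b2 counts, control libraries S1, S2, S6 and S7 held 4.92, 5.78, 7.42 and 5.44 Fxyd1 counts, while cKO libraries S3, S4, S5 and S8 held 3.93, 3.98, 3.23 and 3.59. Means were 5.89 ± 1.08 and 3.68 ± 0.348 (SD, n = 4 each), and this ratio does not depend on the scaling between libraries. The cKO ratios all lay below the control ratios. This was 1 of the 15 pairs that the 6 tested members form, it was picked after its values were seen, and it is given without a test. Among the 14756 other tested genes, 2.39% had ratios to Atp1b2 that did not overlap between the groups.

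**Figure D4:**
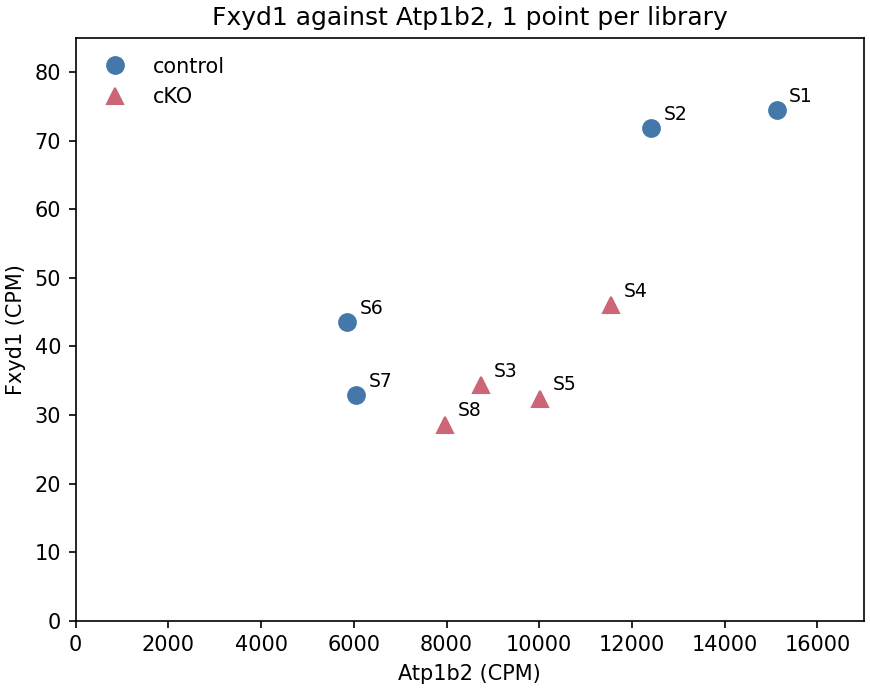
Fxyd1 against Atp1b2, both in CPM on linear axes, with 1 point per library, circles for control and triangles for cKO. Control S1 and S2 sit at the upper right, and the cKO libraries lie below the line from the origin through any control library, at 3.23 to 3.98 Fxyd1 counts per 1000 Atp1b2 counts against 4.92 to 7.42.

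Genes most like each member in pattern were sought among 5208 or 5209 other protein-coding genes with a mean of at least 20 CPM, by the correlation of log2 CPM over the 8 libraries. For Atp1b2 they were Rcn2 at 0.984, Slc29a2 at 0.978 and Mgst1 at 0.978, and these values were 0.985, 0.979 and 0.979 with group means removed. Rcn2 showed the same pairs of controls, at 359, 326, 143 and 132 CPM in S1, S2, S6 and S7, with cKO between them at 197 to 251 CPM. For Fxyd1 they were B3galt2 at 0.977, Lrrc8a at 0.962 and Pigu at 0.960. B3galt2 encodes a galactosyltransferase and Lrrc8a a subunit of the volume-regulated anion channel. Their adjusted p in edgeR's quasi-likelihood test were 0.302 and 0.576. The nearest genes to Atp1b1 were Rgl1 at 0.903, Pros1 at 0.891 and Aldh5a1 at 0.883. For Atp1b3 they were Rexo2 at 0.964, Prdx1 at 0.962 and Pea15a at 0.962, and Prdx1 encodes a peroxiredoxin. For Fxyd6 they were Os9 at 0.963, the metallothionein gene Mt1 at 0.942 and Pigt at 0.933. For Fxyd7 they were Kifap3 at 0.918, Anp32b at 0.910 and Oxa1l at 0.895. With group means removed, the values for these 4 members lay between 0.835, for Aldh5a1, and 0.964, for Pea15a. The best of so many genes over 8 libraries is high by selection.

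Some other RNA in the libraries also differed between the control pairs. The summed astrocyte markers were at 10184 and 8778 CPM in control S1 and S2 and at 6191 and 7164 CPM in S6 and S7. The list itself was divided. Gja1, Aldoc, Fgfr3 and Sox9 were higher in both S1 and S2, while Aqp4, Aldh1l1 and S100b did not split by pair. Slc1a3 was lower in S1 and S2, at 637 and 547 CPM against 720 and 703 CPM in S6 and S7. Gfap was also lower there, at 165 and 145 CPM against 257 and 289 CPM. Summed oligodendrocyte precursor markers were lower in S1 and S2, at 499 and 378 CPM, than in S6 and S7, at 697 and 1067 CPM. Gpr17 was the largest part of this sum, at 338 and 235 CPM against 477 and 751 CPM. Pdgfra, Neu4 and Bmp4 were also higher in both S6 and S7, while Olig2 and Cspg4 did not split by pair. Fibroblast markers were at 124 and 191 CPM in S1 and S2 and at 516 and 239 CPM in S6 and S7. Pdgfra, which is in both the precursor and the fibroblast list, gave 72.0 CPM of the S7 sum. Dcn and Col1a1 gave 174 and 130 CPM of the S6 sum. In S7, Dcn, Col1a1 and Lum were lower than in S2 and Col1a2 was higher, so the fibroblast list did not split by pair as a whole. None of these lists had a member at 0 in every library. In cKO the precursor sum was 272 to 518 CPM. The part of these cells in the spread of Atp1b2 and Fxyd1, or in the lower mean of Fxyd1 in cKO, was not tested.

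The pump's known partners and the carriers that load astrocytes with sodium did not pass the test either. Of 12 pump-associated genes, 11 were tested, 0 were called and 0 had an unadjusted p under 0.05. Their median log2 fold change was 0.09. Nkain4, a sodium-potassium ATPase interacting protein, was at 53.1 CPM ± 30.0 in controls, against 33.6 CPM ± 4.82 in cKO (SD, n = 4 each). Control S1 and S2 were at 89.7 and 65.7 CPM and S6 and S7 at 27.0 and 30.1 CPM, beside 29.3 to 40.5 CPM in cKO. Only S1 and S2 thus lay above the cKO libraries. The fold change of Nkain4 on the log2 scale was −0.66, with an adjusted p of 0.547 in edgeR's quasi-likelihood test. Hepacam and Mlc1, partner membrane proteins of astrocyte junctions, had log2 fold changes of 0.14 and 0.20. Of 17 sodium-coupled carriers, 17 were tested and 0 called, with a median of 0.04, beside −0.02 over all genes. At an unadjusted p under 0.05 there were 4 of the 17, where 9.81% of all tested genes had such a p. They were the phosphate carrier Slc20a1 at −0.65, the inositol carrier Slc5a3 at 0.65, the glutamine carrier Slc38a3 at 0.55 and the sodium-calcium exchanger Slc8a2 at −2.42 on the log2 scale. Their adjusted p were 0.283, 0.366, 0.416 and 0.416 in edgeR's quasi-likelihood test. Slc8a2 was near the floor, at 4.52 CPM ± 3.55 in controls and 0.837 CPM ± 0.700 in cKO (SD, n = 4 each), with 0 in cKO S5.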

How the data were processed

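The authors deposited raw counts per gene for each library and FPKM values per library on GRCm38. They also deposited a comparison table with group means of scaled counts (a signal), log2 fold changes, standard errors and Wald statistics (scores) and p-values. HTSeq 0.6.1p1, TopHat2 2.0.11, Bowtie2 2.2.3, Cufflinks 2.2.1 and DESeq2 1.14.1 are named in the submitters' processing notes, without their roles. Annotation release and strand setting are not given in the sources used here. Summary lines that name no gene held 56.4% to 61.7% of reads and were left out. FPKM columns followed the counts of the same-named library in 3 of 8 cases and of the same group in 8 of 8, over 12902 genes, so FPKM were used by group only.

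Counts were tested with edgeR 4.0.16 (R 4.3.3, TMM, filterByExpr, quasi-likelihood, no covariate) with Benjamini-Hochberg adjustment over all tested genes and a threshold of 0.05. Intervals are at 95%, and CPM use TMM-scaled library sizes. Lengths and coordinates are from GENCODE M21. DESeq2 1.42.0 and limma 3.58.1 served as alternatives, and the edgeR code was tested on simulated data. The named genes were the 7 members, Kcnj10, any members of the pathway lists past the threshold and the 3 genes most alike to each member. Some family genes that this rule names are not reported here. Others named were chosen after their values were seen: Nme7, Mir7050, Cst3, the cell type markers named singly, Nkain4, Hepacam, Mlc1 and 4 carriers. The members and lists were chosen with earlier results of these data known.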

Additional observations from a re-analysis of the deposited data

Results flagged for a closer look

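In 1 case a value lay far from its group: the share of Fxyd6 in the Fxyd total was 7.72% in control S7, against 1.73% to 2.75% in the other controls, from 122 Fxyd6 counts. This was 1 of 28 groups of 4 libraries examined, where chance gives 1.4, and the gap only just exceeded the limit (0.829196 of the group's range against 0.829).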

How the results depend on the processing

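None of the 6 members tested in the main fit was called under any alternative in which it was tested. For Fxyd5, only the fit with every gene of at least 1 count was examined, and it was not called there. Atp1b1, Atp1b3, Fxyd1 and Fxyd6 kept their direction in 15 of 15 alternatives each, with log2 fold changes between −0.39 and −0.20, 0.06 and 0.29, −0.83 and −0.48, and −0.68 and −0.05. Atp1b2 changed sign in 7 of 15, to 0.057 with library totals and 0.033 with FPKM at a pseudocount of 1 and of 0.1, and Fxyd7 in 1 of 14. Library totals shifted the median of all genes by 0.11. Leaving out 1 library gave log2 fold changes of −0.39 to −0.22 for Atp1b1, −0.23 to 0.24 for Atp1b2, 0.06 to 0.25 for Atp1b3, −0.83 to −0.48 for Fxyd1, −0.68 to −0.05 for Fxyd6 and −0.98 to 0.037 for Fxyd7. Share differences then ran, in percentage points, from −0.203 to −0.0368 for Atp1b1, −0.0814 to 0.322 for Atp1b2, −0.119 to 0.183 for Atp1b3, −3.63 to 1.75 for Fxyd1, −0.259 to 0.0851 for Fxyd5, −0.738 to 1.38 for Fxyd6 and −1.65 to 3.14 for Fxyd7. With the longest transcript as length the Fxyd6 difference was −0.00583. Fxyd5 failed the filter on low counts, so its fitted fold change, with every gene of at least 1 count, has no counterpart under the main filter.

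The number of genes called, 47, became 87 with every gene of at least 1 count, 84 with at least 10 counts in every library, 306 with DESeq2, and 7 and 8 with limma on FPKM at pseudocounts of 1 and 0.1. It was 4 to 45 when 1 library was left out, lowest without cKO S4, and 30 without control S1, 14 without S2, 16 without S6, 24 without cKO S5 and 28 without S8. Library totals gave 62, 48 higher and 14 lower, in place of 30 and 17. The causes were not tested. No paired analysis was possible because the groups share no replicate numbers.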
